A study of Mus musculus with 12 samples.

Results

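Interferon-induced genes and GTPases, as listed by 39 gene symbols, were followed in resting and activated mouse CD8 T cells. The members were every probe set whose only gene symbol in the array annotation was one of the 39, and the 39 were listed with earlier results of these data known. Of the 39 genes, 37 had such a probe set, with 57 probe sets among 45101 on the array and 37 genes among 18193 that had a probe set. Isg15 and Ifi44 were not analysed here, because the single probe set of Isg15 also carried the symbol Gm9706 and no probe set carried Ifi44 alone. All 37 genes passed the filter on dim genes, which 13159 genes passed in all. Mx2 was the dimmest of them with a signal past percentile 40 of the array on 5 of 12 arrays.

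CD8 T cells were purified from spleens of male mice, and their polyA RNA was hybridised to Affymetrix arrays. All mice carried Cd4-Cre, a Cre recombinase under the Cd4 promoter, which is active in developing T cells. WT mice were Cd4-Cre/Scap+/+ littermates and KO mice carried floxed Scap alleles with Cd4-Cre, so that Scap, the escort protein of the SREBP transcription factors, was targeted in T cells and not in other cells of the spleen. T0 was the quiescent state and T6 followed 6 h of activation with plate-bound antibody to CD3 and soluble antibody to CD28, with 3 arrays, labelled as biological replicates, in each of the groups WT T0, WT T6, KO T0 and KO T6. No group was cultured for 6 h without the antibodies. A change on activation below therefore means T6 against T0, in which activation and time in culture cannot be told apart.

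Interferons act through receptors that signal by JAK kinases and STAT factors. Type I interferons act through a complex that holds Stat2 and Irf9 on the interferon-stimulated response element (ISRE) of antiviral genes such as the IFIT, Mx and oligoadenylate synthetase genes, whereas gamma interferon, which activated CD8 T cells secrete, acts mainly through the gamma-activated sequence (GAS) and through Irf1. The guanylate-binding proteins (GBP) and immunity-related GTPases (IRG) are known for attacking the vacuoles of intracellular pathogens and respond strongly to gamma interferon.

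RefSeq promoters of the mouse build GRCm38.p6, each 300 bases long with 250 before and 50 after the start of the gene, were on hand for 28 of the 39 listed genes, in 32 promoters. The ISRE letters, TTTC followed by any 2 bases and by TTTC again, searched on both strands, stood in 14 of the 32 (43.8%) against 3.44% of all 32851 promoters. The GAS letters TTCNNNGAA, which read the same on both strands, stood in 7 of the 32 (21.9%) against 8.3% of all. Among GBP and IRG genes 5 of 6 held the ISRE letters and 2 the GAS letters, and among IFIT and oligoadenylate synthetase genes 4 of 7 and 2 did, while no Mx promoter was on hand. In Bst2 a match of each kind overlapped. A match is a description of letters and not a binding site. The following stretches are shown because these genes stand for the different courses described below. Ifit1 and Ifit3 varied widely between replicate arrays, Gbp2, Igtp, Irgm1 and Irf1 rose on activation in both genotypes, and Rsad2 differed in a direction opposite to most members between genotypes. Capitals mark the matches, and each sequence runs 5′ to 3′ on the strand of its gene.
Ifit1 (chr19:34640760-34640838, plus strand): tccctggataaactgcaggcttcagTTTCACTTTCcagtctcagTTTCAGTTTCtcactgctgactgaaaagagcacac
Ifit3 (chr19:34583348-34583441, plus strand): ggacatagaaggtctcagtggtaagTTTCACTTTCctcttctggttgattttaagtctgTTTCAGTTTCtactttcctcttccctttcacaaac
Gbp2 (chr3:142620579-142620638, plus strand): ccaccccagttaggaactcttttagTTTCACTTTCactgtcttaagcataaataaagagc
Igtp (chr11:58199486-58199555, plus strand): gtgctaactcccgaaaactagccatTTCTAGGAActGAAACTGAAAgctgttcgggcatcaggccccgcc
Irgm1 (chr11:48871421-48871475, minus strand): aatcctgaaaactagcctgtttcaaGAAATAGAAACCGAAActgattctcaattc
Irf1 (chr11:53769899-53769957, plus strand): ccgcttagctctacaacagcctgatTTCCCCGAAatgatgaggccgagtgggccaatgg
Rsad2 (chr12:26456538-26456597, minus strand): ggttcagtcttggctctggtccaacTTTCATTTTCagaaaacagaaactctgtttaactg
Ifit1 and Ifit3 each hold the ISRE letters at 2 separate places. Igtp holds the GAS letters followed by the ISRE letters on the opposite strand, and Irf1 holds the GAS letters alone.

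Values are log2(signal + 16) of the linear signal, and differences are on that scale, which understates the change of dim genes. The trimmed mean signal was 500.003 on every array and array medians lay between 61.3 and 76.2. Differences were tested with limma over all 13159 genes, errors are standard errors (SE) of that fit, and a difference counted as called where its p, adjusted by Benjamini-Hochberg, was under 0.05. Scap, whose probe set may lie outside the deleted part and then checks nothing, differed between KO and WT by -0.25 at T0 (adjusted p = 0.593) and by -0.47 at T6 (adjusted p = 0.273), so that neither difference was called. Cd8a, which marks CD8 T cells, and Cd3e, which marks T cells, were at 11.84 or higher on every array. Cd3e was nevertheless lower in KO without being called, at 12.45, 12.43 and 12.37 against 13.24, 13.42 and 13.07 in WT at T0. At T6 it was at 12.16, 11.93 and 11.84 in KO against 12.75, 12.81 and 13.19 in WT. Of 12 genes of early T cell activation 11 rose in each genotype, against 11.3% of all genes in WT and 10.4% in KO.

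The array WT T6 replicate 2 stood apart for the interferon-induced genes. It held the highest value of its group for 34 of the 37 members, against 34.2% of all genes tested, and WT T6 replicate 1 held the lowest for 31. Replicate 2 also held the highest value for 26 members in WT T0 (28.5% of all genes) and for 25 in KO T6 (35.7%), but for 15 in KO T0. Over the 10 IFIT, Mx and oligoadenylate synthetase genes, the median per array was 8.27, 9.54 and 8.34 in WT T6 replicates 1 to 3. In KO T6 it was 8.39, 9.11 and 8.28. Over the 8 GBP and IRG genes the same arrays gave 13.32, 13.81 and 13.62 in WT T6 and 13.53, 13.41 and 13.55 in KO T6. The SD over 3 arrays was 0.71 for the antiviral genes and 0.25 for the GTPases in WT T6, 0.45 and 0.07 in KO T6, 0.31 and 0.12 in WT T0, but 0.15 and 0.16 in KO T0, so that the spread of the antiviral genes was wider in 3 of 4 groups. The mean of the myeloid markers was 7.33 in WT T6 replicate 2 against 7.18 and 6.82 on the other arrays of its group, that of the B cell markers 6.61 against 7.56 and 6.64, and that of the plasmacytoid dendritic cell markers 7.62 against 7.65 and 7.24. The part of these cells in the array's high values was not tested, and in bulk RNA fewer cells of a type and less RNA per cell cannot be told apart.

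**Figure D1:**
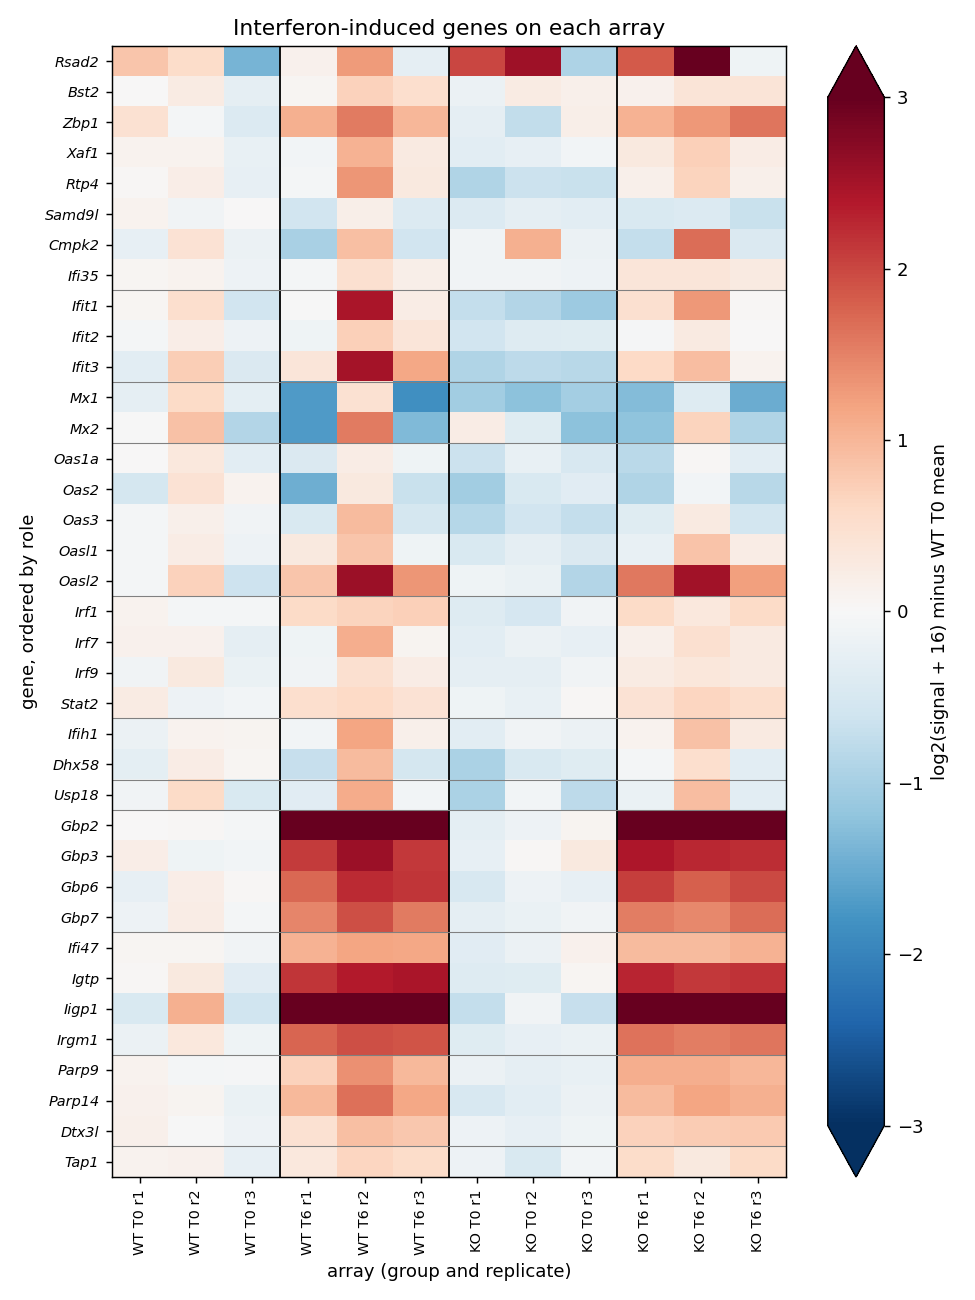
Each row is 1 of the 37 interferon-induced genes, ordered by role, and each column 1 of the 12 arrays. Colour is log2(signal + 16) minus the WT T0 mean of the gene, and values beyond 3 in either direction take the end colour. GBP and IRG rows are red on all T6 arrays, and of the 3 WT T6 arrays replicate 2 is the reddest in every IFIT, Mx and Oas row.

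On activation, 16 of the 37 members were called higher in WT cells and 0 lower, against 11.3% of all genes called higher and 13.8% called lower. In KO cells 18 were called higher and 0 lower, against 10.4% called higher and 10.4% called lower. The 2 comparisons share no array, but take 1 estimate of the spread of each gene from all 12 arrays, so that their calls are not independent. The 16 genes raised in WT were among the 18 raised in KO. They were Gbp2, Gbp3, Gbp6, Gbp7, Ifi47, Igtp, Iigp1, Irgm1, Irf1, Stat2, Parp9, Parp14, Dtx3l, Oasl2, Zbp1 and Tap1, and KO added Ifi35 and Rtp4. The median difference over the members was 0.51 in WT and 0.71 in KO, beside -0.06 and -0.00 over all genes. The WT median was 0.12 without WT T6 replicate 2 and 0.37 without replicate 2 of every group. With replicate 2 left out of every group, 13 members were called higher in WT and 18 in KO, and 2 members, Mx1 and Samd9l, were called lower in WT. T6 arrays lay above T0 arrays without overlap for 16 members in WT (19.2% of all genes) and for 28 in KO (18.9%), and below for 0 in either genotype (23.6% and 17.6%).

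The guanylate-binding proteins rose as a whole, 4 of 4 in each genotype. Gbp2, which coats pathogen vacuoles, read 11.71, 11.73 and 11.64 in WT T0 and 14.79, 14.90 and 14.86 in WT T6. In KO it read 11.41, 11.54 and 11.78 at T0 and 14.75, 14.71 and 14.85 at T6. Every activated array lay above every quiescent one. The difference was 3.15 ± 0.10 (SE, n = 3 and 3) in WT (limma adjusted p = 9.21e-08) and 3.19 ± 0.10 in KO (adjusted p = 2.45e-07), or 8.9-fold and 9.13-fold. Gbp3 rose by 2.26 in WT and 2.28 in KO, Gbp6 by 2.04 and 2.24, and Gbp7 by 1.65 and 1.75. The further probe sets of Gbp2, Gbp6 and Gbp7 gave 1.86 to 2.41 in WT and 1.91 to 2.60 in KO.

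The immunity-related GTPases rose likewise, 4 of 4 in each genotype. Iigp1, an effector GTPase that loads onto parasite vacuoles, changed most of all members. It read 8.62, 10.15 and 8.5 in WT T0 and 12.79, 13.12 and 13.60 in WT T6. The KO arrays read 8.38, 8.98 and 8.40 at T0 and 12.69, 13.29 and 12.72 at T6. WT T0 replicate 2 was the highest quiescent array and still lay below every activated one. The difference was 4.08 ± 0.41 in WT (16.9-fold, limma adjusted p = 1.003e-04) and 4.31 ± 0.41 in KO (19.9-fold, adjusted p = 9.03e-05). Its second probe set gave 4.11 and 4.57. Igtp, a regulatory member of the family, rose from 12.42, 12.68 and 12.04 to 14.53, 14.75 and 14.82 in WT. In KO Igtp rose from 12.003, 12.02 and 12.43 to 14.65, 14.51 and 14.56, and its T0 and T6 arrays did not overlap in either genotype. The differences were 2.32 ± 0.17 and 2.42 ± 0.17. Irgm1, another regulatory member, rose by 1.86 in each genotype and Ifi47 by 1.13 in WT and 1.10 in KO.

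**Figure D2:**
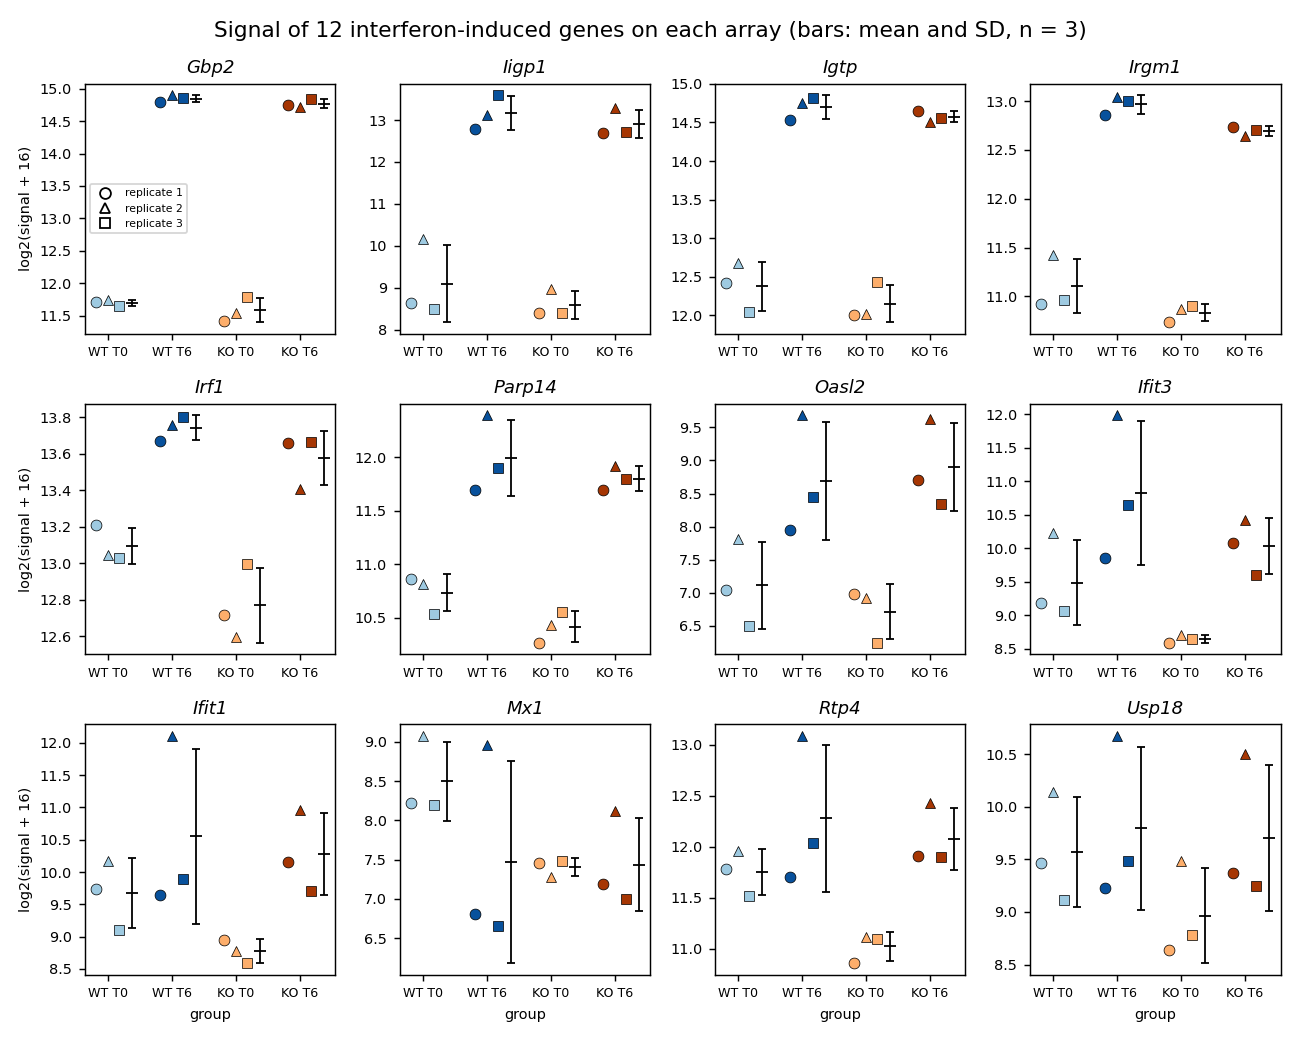
Each panel shows log2(signal + 16) of 1 gene on the 12 arrays by group, with marker shape for the replicate number and a bar for the mean and SD of 3 arrays; each panel has its own axis, which does not start at 0. Gbp2, Iigp1, Igtp and Irgm1 separate T6 from T0 on every array, whereas Ifit1, Ifit3, Mx1, Rtp4 and Usp18 are highest on replicate 2 of WT T6 within that group.

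Of the transcription factors, Irf1 and Stat2 rose in both genotypes. Irf1, the factor that relays gamma interferon signals, read 13.21, 13.04 and 13.03 in WT T0 and 13.67, 13.76 and 13.80 in WT T6. In KO it read 12.71, 12.60 and 13.00 at T0 and 13.66, 13.41 and 13.67 at T6. Its T6 arrays lay above its T0 arrays in each genotype, by 0.65 ± 0.12 in WT (limma adjusted p = 0.0038) and 0.81 ± 0.12 in KO (adjusted p = 0.0013). Stat2, the type I interferon signal transducer, rose by 0.51 in WT and 0.64 in KO, and was no longer called in WT without WT T0 replicate 2 or in either genotype without replicate 2 of every group, nor in KO with its probe sets averaged. Irf9, the DNA-binding partner of Stat2, differed by 0.19 in WT (adjusted p = 0.452) and 0.49 in KO (adjusted p = 0.0595). With replicate number within genotype as a block, the KO difference of Irf9 had an adjusted p of 0.03. Irf7, which amplifies type I interferon production, differed by 0.34 and 0.56 without being called.

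Parp9 and Dtx3l, which form a complex of an ADP-ribosyltransferase and a ubiquitin ligase, rose together with Parp14, another ADP-ribosyltransferase. Parp14 read 10.86, 10.81 and 10.53 in WT T0 and 11.70, 12.39 and 11.90 in WT T6. The KO arrays read 10.27, 10.43 and 10.55 at T0 and 11.69, 11.92 and 11.79 at T6, so that T0 and T6 did not overlap in either genotype. The differences were 1.26 ± 0.17 in WT and 1.38 ± 0.17 in KO for Parp14, 1.01 and 1.28 for Parp9, and 0.73 and 0.92 for Dtx3l. Dtx3l was not called in WT without replicate 2 of every group. Tap1, a subunit of the transporter that feeds peptides to MHC class I molecules, rose by 0.51 ± 0.15 in WT (limma adjusted p = 0.0317) and 0.71 ± 0.15 in KO (adjusted p = 0.00752). Its call in WT was lost in 9 of 24 alternatives. Of its other probe sets, the only one above percentile 40 on any array, on 9 of them, gave -0.32 in WT and -0.61 in KO, and with the mean of its probe sets Tap1 differed by -0.0026 and -0.092.

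Of the IFIT proteins, which bind foreign RNA and hinder its translation, 0 of 3 were called in either genotype. Ifit3 read 9.18, 10.22 and 9.07 in WT T0 and 9.85, 11.98 and 10.64 in WT T6. In KO it read 8.59, 8.71 and 8.65 at T0 and 10.08, 10.42 and 9.60 at T6. T6 lay above T0 without overlap in KO, whereas in WT the highest T0 array, replicate 2, exceeded the lowest T6 array. Ifit3 differed by 1.34 ± 0.49 in WT (limma adjusted p = 0.0711) and by 1.39 ± 0.49 in KO (adjusted p = 0.0713). Ifit1 read 9.73, 10.18 and 9.10 in WT T0 and 9.65, 12.11 and 9.90 in WT T6, where replicate 2 alone lay above the T0 arrays. The KO arrays read 8.96, 8.78 and 8.59 at T0 and 10.15, 10.96 and 9.71 at T6, again without overlap. Ifit1 differed by 0.88 ± 0.59 in WT (adjusted p = 0.319) and 1.5 ± 0.59 in KO (adjusted p = 0.104). With the block within genotype, the KO differences were called for Ifit3 (adjusted p = 0.0144) and Ifit1 (adjusted p = 0.0462), and so was the WT difference of Ifit3 (adjusted p = 0.0139). Ifit2 differed by 0.32 and 0.52.

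The oligoadenylate synthetases make the messenger that activates RNase L, and their relatives Oasl1 and Oasl2 act in antiviral defence. Of 5 genes 1 was called, in each genotype. Oasl2 read 7.05, 7.81 and 6.49 in WT T0 and 7.95, 9.68 and 8.44 in WT T6. In KO it read 6.98, 6.92 and 6.25 at T0 and 8.71, 9.63 and 8.35 at T6. T0 and T6 did not overlap, and replicate 2 was the highest array of both T6 groups. The differences were 1.58 ± 0.50 in WT (limma adjusted p = 0.0421) and 2.18 ± 0.50 in KO (adjusted p = 0.0115). The WT call was lost in 9 of 24 alternatives, among them each of the fits without WT T6 replicate 2 and without WT T6 replicate 3. Oas1a, Oas2, Oas3 and Oasl1 lay between -0.61 and 0.33 in WT and between 0.01 and 0.67 in KO.

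The Mx GTPases, dynamin-like proteins that block virus replication, were called in neither genotype. Mx1 read 8.22, 9.08 and 8.19 in WT T0 and 6.80, 8.96 and 6.65 in WT T6. The KO arrays read 7.46, 7.27 and 7.49 at T0 and 7.19, 8.12 and 7.002 at T6. WT T6 replicates 1 and 3 lay below every T0 array, and replicate 2 lay among the WT T0 arrays. The difference was -1.03 ± 0.56 in WT (limma adjusted p = 0.215) and 0.03 ± 0.56 in KO (adjusted p = 0.98). Without WT T6 replicate 2, Mx1 fell by 1.77 in WT and was called. Mx2 differed by -0.49 and -0.02.

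The RNA sensors Ifih1, which encodes MDA5, and Dhx58, which encodes LGP2, were not called. They differed by 0.42 and -0.09 in WT and by 0.61 and 0.64 in KO. Usp18, which removes ISG15 from proteins and dampens interferon receptor signalling, read 9.47, 10.14 and 9.11 in WT T0 and 9.23, 10.68 and 9.48 in WT T6. In KO it read 8.63, 9.48 and 8.78 at T0 and 9.37, 10.51 and 9.25 at T6. Replicate 2 was the highest array in all 4 groups. Usp18 differed by 0.22 in WT (limma adjusted p = 0.777) and 0.74 in KO (adjusted p = 0.303), and by the block within genotype its adjusted p in KO was 0.0377.

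Among the 8 other effectors measured, Zbp1, a sensor of nucleic acids that can trigger cell death, rose in both genotypes. Zbp1 read 9.88, 9.36 and 8.997 in WT T0 and 10.48, 10.97 and 10.41 in WT T6. The KO arrays read 9.15, 8.67 and 9.58 at T0 and 10.45, 10.72 and 11.01 at T6, with no overlap in either genotype. The differences were 1.21 ± 0.28 (limma adjusted p = 0.0117) and 1.60 ± 0.28 (adjusted p = 0.00327), and its second probe set gave 1.61 and 1.85. Without replicate 2 of every group, Zbp1 was not called in WT. Rtp4, an interferon-induced chaperone of membrane receptors, read 11.78, 11.96 and 11.52 in WT T0 and 11.70, 13.09 and 12.04 in WT T6, which overlap. In KO Rtp4 rose from 10.86, 11.11 and 11.09 to 11.91, 12.43 and 11.90, by 1.06 ± 0.31 (adjusted p = 0.0354), while in WT it differed by 0.52 (adjusted p = 0.256). A dimmer probe set of Rtp4 gave 0.81 in WT and 0.71 in KO. Ifi35, a leucine-zipper protein, rose by 0.45 in KO (adjusted p = 0.0345) and differed by 0.21 in WT. Its 2 further probe sets gave 0.44 and 0.12 in WT and 0.33 and 0.22 in KO. The KO calls of Rtp4 and Ifi35 were each lost when any 1 of the 6 KO arrays was left out. Bst2 (tetherin, which holds budding virions to the cell), Xaf1 (an antagonist of the apoptosis inhibitor XIAP) and Samd9l (a brake on growth and translation) lay between -0.27 and 0.42 in WT and between -0.18 and 0.62 in KO, and were not called.

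**Figure D3:**
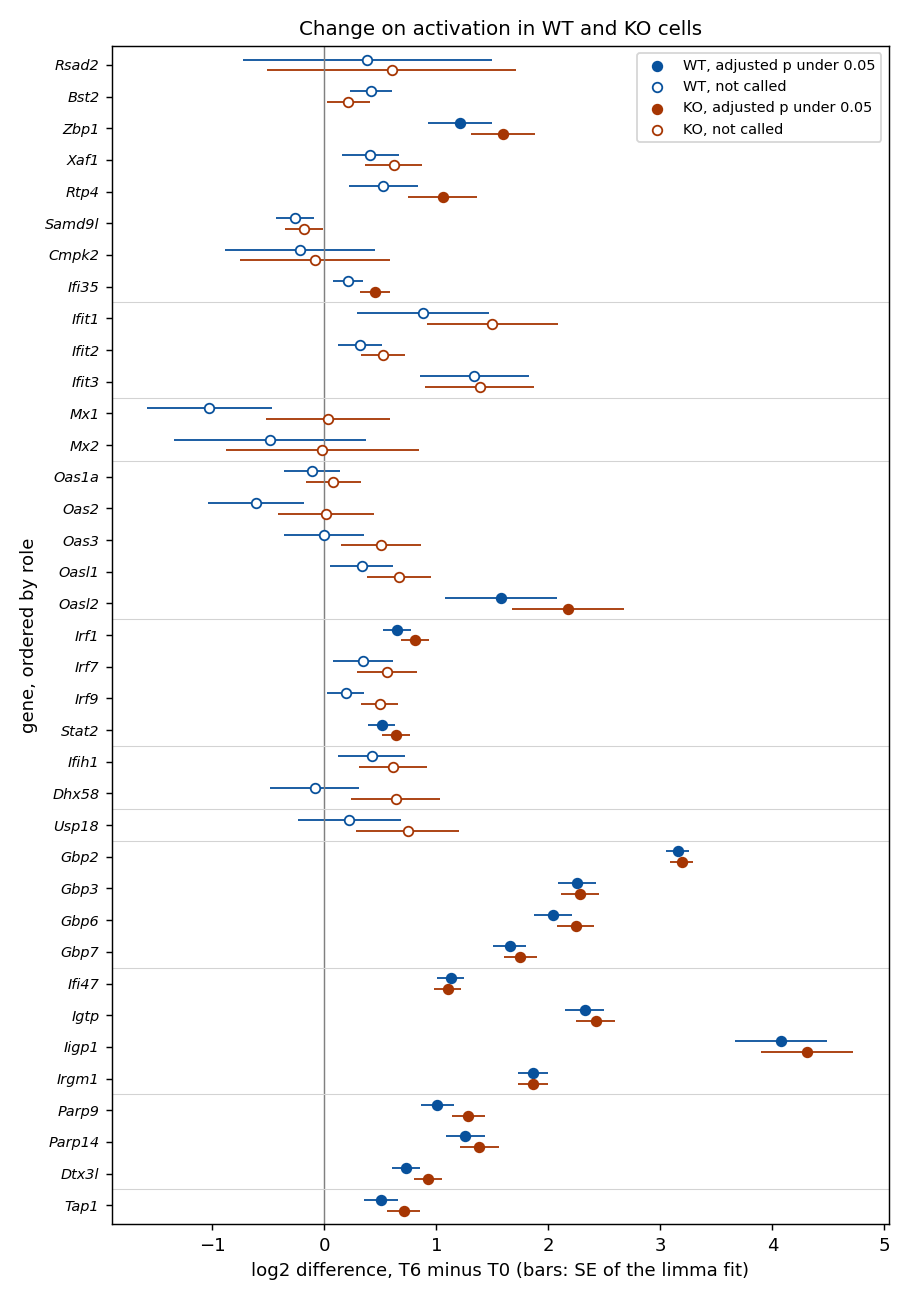
Points are the log2 difference T6 minus T0 of each of the 37 genes in WT and KO cells, with bars for the SE of the limma fit and filled points for an adjusted p under 0.05. The filled points of the GBP and IRG genes lie between 1.10 and 4.31 in both genotypes, and the Mx genes lie at or below 0.03.

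Whether the T6 minus T0 difference was unlike in the 2 genotypes was tested by the interaction. Of the 37 members 0 were called by limma in either direction, as were 0% of all genes higher and 0% lower, and at an unadjusted p under 0.05 there were 0 members against 4.59% of all genes. The activation difference was larger in KO for 34 of 37 members, against 56.8% of all genes, with a median of 0.20 beside 0.04 over all genes. With each array left out in turn that median lay between 0.05 and 0.44, the latter without WT T6 replicate 2. Mx1 had an interaction of 1.06 and Dhx58 of 0.72, both with an adjusted p of 1.0. The GBP and IRG genes lay between -0.02 and 0.24. The interaction is the KO minus WT difference at T6 less that at T0. The count of 34 is therefore not independent of the mostly negative T0 differences given below. Members also moved together between arrays, so that the 37 are not independent observations. The count of 34 rests on the brightest probe set of each gene. Further probe sets of Gbp7 (2.01 in WT and 1.91 in KO), Parp14 (1.38 and 1.01) and Rtp4 (0.81 and 0.71) rose less in KO. So did those of Stat2 (0.49 and 0.32) and 1 of Ifi35 (0.44 and 0.33). Those of Gbp2, Gbp6, Iigp1, Dtx3l, Zbp1, Xaf1 and Rsad2 rose more in KO. The calls of Rtp4 and Ifi35 in KO alone therefore do not show a difference between the genotypes.

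In quiescent cells, 0 of 37 members were called in KO against WT by limma, against 0% of all genes called higher and 0.038% called lower. Differences were nevertheless mostly negative, in 33 of 37 members, and positive in 4, against 50% of all genes positive. Their median was -0.28 beside -0.00 over all genes. Members moved together between arrays, so that these counts do not rest on 37 independent genes. At an unadjusted p under 0.05 there were 3 members, Irf1, Rtp4 and Ifit2, against 9.77% of all genes, and all 3 were lower in KO. KO T0 arrays lay below WT T0 arrays without overlap for 12 members, against 8.51% of all genes, and above for 0, against 8.12%. The 12 were Rtp4, Samd9l, Ifit1, Ifit2, Ifit3, Mx1, Oas3, Oasl1, Irf1, Dhx58, Irgm1 and Parp9. Mx1 differed by -1.09 ± 0.56 (adjusted p = 0.564), Ifit1 by -0.89 ± 0.59 (adjusted p = 0.64), Ifit3 by -0.84 ± 0.49 (adjusted p = 0.597), Rtp4 by -0.73 ± 0.31 (adjusted p = 0.496) and Oas3 by -0.72 ± 0.36 (adjusted p = 0.549). A dimmer probe set of Rtp4 gave 0.49 in the opposite direction. The per-array median over the IFIT, Mx and oligoadenylate synthetase genes was 8.47, 9.0 and 8.46 in WT T0 and 7.68, 7.95 and 7.95 in KO T0, which do not overlap. Over the GBP and IRG genes it was 11.40, 11.64 and 11.51 in WT T0 and 11.14, 11.37 and 11.44 in KO T0, which do.

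At T6 in KO against WT, 0 of 37 members were called, against 0.0304% of all genes called higher and 0.0684% called lower, and 0 reached an unadjusted p under 0.05, against 11.8% of all genes. The median was -0.06, beside 0.04 over all genes, with 24 members negative and 13 positive, against 57.1% of all genes positive. Without WT T6 replicate 2 the median was 0.20, so its direction rested on that array. KO T6 arrays lay below WT T6 arrays without overlap for 2 members, against 8.01% of all genes, and above for 0, against 10.8%. These 2 were Irf1, at -0.16 ± 0.12 (limma adjusted p = 0.626), and Irgm1, at -0.27 ± 0.13 (adjusted p = 0.452). Irgm1 read 12.86, 13.04 and 13.00 in WT T6 and 12.74, 12.64 and 12.71 in KO T6, a narrow gap between groups of little spread. Ifit3 differed by -0.79 ± 0.49, and by -0.21 without WT T6 replicate 2.

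**Figure D4:**
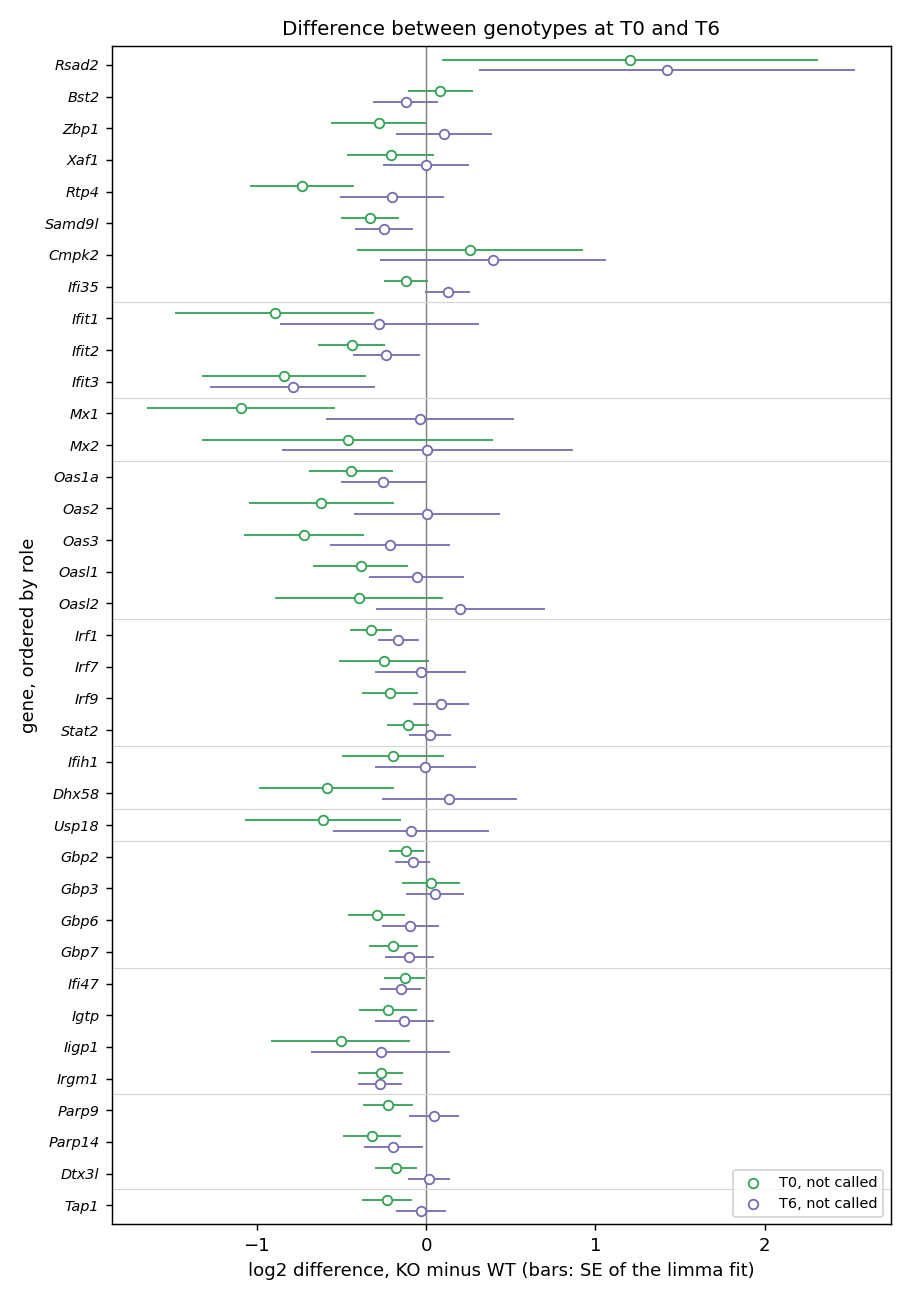
Points are the log2 difference KO minus WT of each of the 37 genes at T0 and at T6, with bars for the SE of the limma fit; no difference was called. At T0 33 of 37 points lie below 0, with Mx1 lowest at -1.09, and Rsad2 lies highest at both times.

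Rsad2, which encodes viperin, an enzyme that makes a chain-terminating nucleotide, and its neighbour on chromosome 12, Cmpk2, a nucleotide kinase of mitochondria, were among the few members with positive differences between KO and WT at T0. Rsad2 read 9.67, 9.40 and 7.45 in WT T0 and 8.97, 10.12 and 8.58 in WT T6. KO arrays stood at 10.85, 11.38 and 7.91 at T0 and 10.67, 12.55 and 8.72 at T6. Replicates 1 and 2 of KO were high at both times, and replicate 3 lay within the WT range. The difference between KO and WT was 1.21 ± 1.11 at T0 (limma adjusted p = 0.733) and 1.42 ± 1.11 at T6 (adjusted p = 0.64), and 2 further probe sets gave 0.99 and 1.29 at T0 and 1.23 and 1.40 at T6. Cmpk2 differed by 0.26 at T0 and 0.39 at T6. On activation Rsad2 differed by 0.38 in WT and 0.60 in KO and Cmpk2 by -0.22 and -0.08, none of them called.

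Erythroid markers were high on the same KO arrays as Rsad2. The mean of the 3 of 7 listed markers that were tested, Alas2, Slc4a1 and Car2, was 9.94, 9.40 and 9.01 in WT T0 and 9.53, 9.67 and 9.41 in WT T6. In KO it was 12.39, 13.22 and 10.34 at T0 and 11.69, 13.48 and 9.90 at T6. Within each of the 4 groups this mean had the array order of Rsad2. Each of the 3 markers had that order in KO T0 and in KO T6, whereas in WT T6 none of them did. In WT T0 Car2, at 12.02, 13.25 and 13.70, ran opposite to Rsad2. Their summed signal was 5202 to 13500 in WT T0, 3590 to 8371 in WT T6, 9517 to 41738 in KO T0 and 5688 to 43263 in KO T6. Car2 was the brightest of the 3 on every array. In WT T0 Alas2 read 9.66, 7.28 and 6.32 and Slc4a1 8.13, 7.66 and 7.01, so that the WT T0 sums follow Car2. The part of erythroid cells in the level of Rsad2 was not tested.

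**Figure D5:**
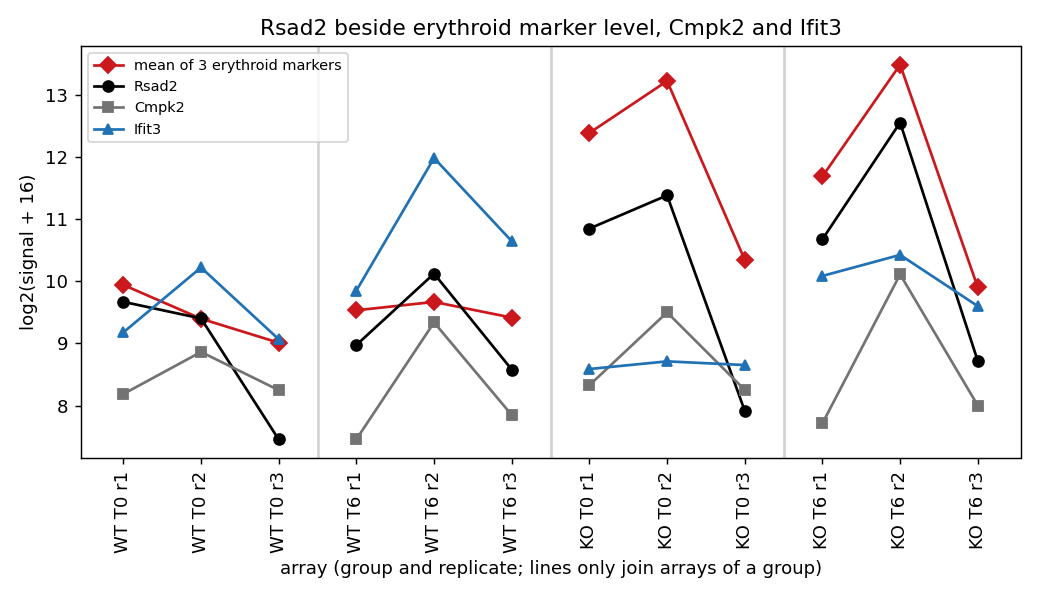
Lines give log2(signal + 16) of Rsad2, Cmpk2 and Ifit3 and the mean of 3 erythroid markers on each array, and join only arrays of a group. Rsad2 and the erythroid mean are both highest in KO replicate 2 at T6, at 12.55 and 13.48, whereas Ifit3 is highest in WT T6 replicate 2.

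Of the other genes of the pathway, listed with earlier results of these data known, Ifng, which encodes gamma interferon, rose by 3.14 in WT and 3.42 in KO (limma adjusted p = 1.1e-05 and 8e-06). Over all genes, 11.3% were called higher and 13.8% lower on activation in WT, and 10.4% and 10.4% in KO. Among the 5 ligand and receptor genes tested, 2 rose and 2 fell in WT and 2 rose and 1 fell in KO. Ifngr1, a gamma interferon receptor chain, rose by 1.09 and 1.22, whereas Ifngr2, the other chain, differed by -1.59 and -1.30 and was called in both. Ifnar2, a type I interferon receptor chain, fell by 0.58 in WT and differed by -0.37 in KO (adjusted p = 0.0516). Ifnb1 lay outside the genes tested. Of the 8 signalling genes tested, 3 rose in each genotype, namely Socs1, a feedback inhibitor of JAK kinases (2.33 and 2.25), Irf8 (2.29 and 1.45) and Jak2 (0.85 and 0.67). In WT 2 of the 8 were called lower, among them Socs3 at -0.55, and in KO 1 was, Jak1 at -0.47. Jak1 fell in WT as well, from 13.90, 13.65 and 13.68 at T0 to 13.23, 13.23 and 13.47 at T6, without overlap.

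Of 32 other interferon-induced genes tested, 7 rose in WT (11.3% of all genes) and 6 in KO (10.4%). None was called lower in either, against 13.8% and 10.4% of all genes. Differences were positive in 15 and negative in 17 of the 32 in WT, with a median of -0.004. In KO 18 were positive and 14 negative, with a median of 0.03. The chemokine Cxcl10 rose by 4.02 and 4.26, Cxcl9 by 2.5 and 3.11, and Irgm2, a relative of Irgm1, by 2.46 and 2.54. Of 9 genes of MHC class I presentation, 2 rose in WT and 3 in KO, beside the same 11.3% and 10.4% of all genes. Tap2, the partner of Tap1, rose by 0.73 and 0.56, and Tapbp, which bridges the transporter to MHC class I, by 0.34 and 0.43. Psmb9, an immunoproteasome subunit, rose by 0.48 in KO, with an adjusted p of 0.0268, which was 0.0688 with the block within genotype. None of these genes was called between genotypes or in the interaction by limma.

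Markers of other cells also moved with activation and with genotype. Of 12 myeloid markers tested of 13 listed, 11 fell on activation in WT (13.8% of all genes) and 10 in KO (10.4%), while the interferon-induced GTPases rose. Their summed signal was 17982 to 24306 in WT T0, 1344 to 2740 in WT T6, 27116 to 33928 in KO T0 and 3243 to 4799 in KO T6. Between genotypes all 12 were higher in KO at both times, with medians of 0.52 and 0.75, and Tyrobp and Vcam1 were called at T6, calls that were kept in 5 and 6 of 23 alternatives. All 10 B cell markers tested of 11 were higher in KO, with medians of 0.71 and 1.40, and summed to 5171 to 9775 in WT T0, 10004 to 20509 in KO T0, 1732 to 4728 in WT T6 and 5986 to 12419 in KO T6. None of the 10 was called. Cd74 was the brightest of the 10 on every array, at 12.79, 12.58 and 11.88 in WT T0, and weighs most in these sums. Plasmacytoid dendritic cells are known for type I interferon. Of 7 genes listed as their markers, 6 were higher in KO at both times and Ccr9 lower, and 0 were called. These summed to 8027 to 9545 in WT T0 and 6534 to 8167 in KO T0, and to 2476 to 2922 in WT T6 and 2686 to 3301 in KO T6. Ccr9 was the brightest of the 7 on every array, so that the sums follow it and not the other 6. The mean log2 value of the 7 was 8.06 to 8.59 in WT T0 and 8.77 to 9.45 in KO T0. At T6 it was 7.24 to 7.65 in WT and 8.27 to 8.62 in KO. In KO T0 Spib read 10.21, 8.02 and 8.63 and Ly6d 10.27, 8.63 and 9.18. That is the array order of the B cell marker Ms4a1, at 11.67, 9.13 and 9.76, which they did not share in KO T6. Whether the signal of the 7 came from plasmacytoid dendritic cells was not tested. All 8 T cell identity genes tested of 10 were lower in KO at both times, with medians of -0.23 and -0.30, and 0 were called. Cd4 was not among the genes tested. The part of these cells in the differences of the interferon-induced genes was not tested.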

How the data were processed

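PolyA RNA of 12 samples was labelled with biotin, per the labels' protocols. The authors deposited linear signal intensities per probe set, made with GCOS per the submitters' processing notes. Its version, background step and probe summary are not given in the sources used here. The equal trimmed mean (percentiles 2 to 98) shows scaling per array. Of 45101 probe sets, 64 were controls, 34945 carried 1 gene symbol in the array annotation, 932 several and 9160 none, and only the first kind was used.

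From the deposited intensities log2(signal + 16) was taken with no further normalization. Each gene took its brightest probe set by mean, and was kept where this exceeded percentile 40 of the array on 3 arrays or more. All 13159 genes were fitted in R 4.3.3 by lmFit and eBayes of limma 3.58.1 (a coefficient for each of 4 groups, 8 residual degrees of freedom, two-sided) with Benjamini-Hochberg adjustment over all genes. For arrays, their number limits the precision. Checked on simulated data for KO against WT at T0, with 13159 genes, the test recovered 13.4%, 56.7% and 87.9% of genes changed by 0.5, 1 and 2, with 9 false calls. The changed genes were a random draw over all spreads, with noise independent between genes. These shares therefore do not hold for members of wide spread, such as Ifit1 (SE 0.59) and Mx1 (SE 0.56).

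As a check of pairing, group means were subtracted and same-numbered T0 and T6 arrays correlated over genes, which gave 0.18, 0.46 and 0.38 for KO replicates 1 to 3 and 0.23, -0.06 and -0.11 for those of WT. Over the 37 members alone these were -0.004, 0.80 and 0.89 for KO and 0.41, 0.54 and 0.42 for WT. By the values over all genes the numbers were taken to pair the arrays in KO alone. Values with the block within genotype are given, in WT too, beside results whose call they change. Those with the block across all groups are given at the end. Over the 37 members, same-numbered arrays of WT and KO correlated at 0.56, 0.47 and 0.82 at T0 and 0.49, 0.72 and 0.60 at T6. Differently numbered ones gave -0.76 to 0.29 at T0 and -0.69 to 0.45 at T6. In these genes the number thus also went with a shift shared by both genotypes, whose source was not tested. Alternatives varied the added constant, filter, normalization, probe set rule, arrays in the fit, block and array weights, and left out each array. Leaving out replicate 2 of every group was added after the data were seen.

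The members and the gene lists were chosen with earlier results of these data known. Any member could be named in any contrast, of each pathway list up to 4 genes per contrast by smallest p, and up to 4 of each marker list. Isg15 and Ifi44 were left out for want of a probe set of their own. Promoters came from RefSeq (GRCm38.p6), and no genome or protein sequence was used here.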

Additional observations from a re-analysis of the deposited data

How the results depend on the processing

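With each array left out in turn, the members called higher on activation numbered 14 to 18 in WT and 16 to 24 in KO, and those called lower 0 to 2 in WT and 0 in KO. The median difference ranged from 0.12 to 0.66 in WT, 0.59 to 0.81 in KO, 0.05 to 0.44 for the interaction, -0.36 to -0.19 for KO against WT at T0 and -0.25 to 0.20 at T6. Both the WT median of 0.12 and the T6 median of 0.20 came without WT T6 replicate 2, and the 2 members then called lower in WT were Mx1 and Samd9l. Without replicate 2 of every group there were again 2 lower and 13 higher in WT. Under the other alternatives 13 to 17 members were called higher in WT and 14 to 24 in KO, and between genotypes or in the interaction 0 were called under any alternative run. Called higher in both genotypes under every alternative were 11 genes: Gbp2, Gbp3, Gbp6, Gbp7, Ifi47, Igtp, Iigp1, Irgm1, Irf1, Parp9 and Parp14. With a replicate block within genotype 17 members were called higher in WT, adding Ifit3, and 22 in KO, adding Ifit1, Ifit3, Irf9 and Usp18. With a replicate block across all groups 16 were called in WT and 24 in KO. In KO this block added the same 4 genes and also Ifit2 (limma adjusted p = 0.0364) and Oasl1 (adjusted p = 0.0474). In WT it added Ifit3 (adjusted p = 0.0267) and lost Tap1 (adjusted p = 0.0553). When the probe sets of each gene were averaged, Tap1 differed by -0.0026 in WT and -0.092 in KO. Median centring moved the median of all genes in WT from -0.06 to 0.05, and the calls over all genes from 1491 higher and 1810 lower to 1907 and 1141, while 17 members were called higher and 0 lower. Dim members such as Mx2 have their changes understated by the added constant.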
